A study of Homo sapiens with 12 samples.

Results

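The 4 RNA-seq libraries numbered replicate 1, with 1 in each group of the series, were set against the 8 libraries numbered replicate 2 or 3, out of 12 libraries in all. All cells were T24, a cell line established from a carcinoma of the human bladder, and the series studied AlissAID, a system in which a small molecule triggers degradation of an endogenous protein that carries no tag. The 4 groups of 3 were WT cells without treatment (T24), WT cells with the inducer 5-Ad-IAA (T24+IAA), cells of the NS1 genotype without treatment (T24NS1) and NS1 cells with 5-Ad-IAA (T24NS1+IAA). The labels do not spell out NS1, do not say whether the NS1 line is a single clone, and do not say whether a replicate number marks a culture run, a passage or a day. The cultures shared DMEM with fetal bovine serum, and libraries were made from the poly(A) fraction of total RNA.

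Replicate 1 was singled out because its libraries lay apart on the second principal component of these same values. Its difference from the others is therefore given as a description with no p-value. For each gene, the replicate 1 difference is the log2 CPM (the count scaled to library size) of the replicate 1 library minus the mean of replicates 2 and 3 in the same group. Its mean and SD were taken over the 4 groups, and a gene was counted where replicate 1 lay above both other libraries, or below both, in all 4 groups. Tests were kept for contrasts other than this overall difference. They were replicate 3 against 2, the replicate 1 difference in NS1 against WT cells, and that difference with against without inducer. These contrasts are not free of the choice, which can favour a small spread between replicates 2 and 3. That spread is the error in the line and inducer contrasts. The gap of replicate 1 on the second component was also wider in NS1 than in WT cells, while on the third component it was wider in WT cells.

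Cells in culture change their transcripts with the age of the medium, oxygen, nutrients and contact with neighbours. Low oxygen stabilises hypoxia-inducible factor (HIF), scarce amino acids raise translation of ATF4, low sterol activates the SREBP factors, and cytokines or damage signals release NF-kB from its inhibitors to act on chemokine and protease genes. Interferon signals act through STAT and IRF factors on a separate set of antiviral genes.

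The replicate 1 libraries held 15627546 to 20266996 counts against 10593934 to 13812276 in the other libraries, and 24883 to 25793 genes with a count against 23515 to 24655. The share of mitochondrial counts was 1.27 and 1.54% in the WT replicate 1 libraries against 2.02 to 2.84% in the other WT libraries. In NS1 cells it lay between the other libraries without inducer and above both with it. The share of the 10 most abundant genes was below both other libraries in 3 of 4 groups. The part of these shares in the results was not tested. On the second component, which held 14.5% of the variance, replicate 1 scored between -17.6 and -43.4 and the other libraries between 3.92 and 28.6. Replicate 1 matched its line labels. PEG10, an imprinted gene named here with earlier results known, stood at 101 to 165 CPM in the WT libraries and at most 0.0962 CPM in the NS1 libraries, and replicate 1 stood with its own line in all 4 groups. All 8 urothelial-line markers (keratins, vimentin and surface proteins of bladder carcinoma lines) were detected in every library. Of the 8 markers of differentiated urothelium 2 to 4 were at 0. The 8 defining leukocyte genes summed to 0.556 to 3.06 CPM and 6 endothelial genes to 0.247 to 4.07 CPM. The labels do not say that the replicates of a group were separate cultures, so p-values below measure only the spread between these libraries. In bulk RNA, a change in the number of cells of a kind cannot be told apart from a change in RNA per cell.

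Replicate 1 lay beyond both other libraries in all 4 groups for 3215 of 17775 genes tested (18.1%), 1536 higher (8.64%) and 1679 lower (9.45%). With replicate 2 as the odd library the count was 1040 (5.85%), 544 higher (3.06%) and 496 lower (2.79%), and with replicate 3 it was 1096 (6.17%), 599 higher (3.37%) and 497 lower (2.8%). The choice of replicate 1 fixes this order, so nothing is read from it. Among genes that also differed by at least 2-fold on average, lower values prevailed, with 160 lower (0.9%) and 37 higher (0.208%). The same counts were 13 higher (0.0731%) and 1 lower (0.00563%) for replicate 2, and 3 higher (0.0169%) and 6 lower (0.0338%) for replicate 3. With library totals in place of TMM factors (the trimmed-mean scaling used throughout) the split of all counted genes turned to 2482 higher and 1092 lower. The median size of the difference over all genes was 0.16 log2 for replicate 1, 0.12 for replicate 2 and 0.12 for replicate 3 as the odd library.

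Cytokines, chemokines and feedback inhibitors under NF-kB were the list with the lowest median. All lists were chosen with earlier results of these data known, so their shares beside those of all genes are description only. Over all genes tested, 9.45% were below both other libraries in all 4 groups and 8.64% above. Of 26 listed genes 24 passed the low-count filter, and 17 of these were below both other libraries in all 4 groups and none was above, with a median replicate 1 difference of -1.34 log2, where the median of all genes tested was 0.01. The medians by group were -1.61 in untreated WT, -1.82 in treated WT, -0.69 in untreated NS1 and -0.61 in treated NS1. The promoters of 5 members are shown for the letters they share, which resemble the sites NF-kB is known to bind. Each line gives the 130 bases that end just before the annotated start, 5′ to 3′ on the gene's strand, from RefSeq on GRCh38.p14, with capitals marking matches to GGG, any 3 bases and TTCC, or to the reverse strand's GGAA, any 3 bases and CCC. The windows are chr4:73869263-73869392 (plus strand) for CXCL1, chr4:73998678-73998807 (minus strand) for CXCL5, chr4:73836548-73836677 (plus strand) for CXCL6, chr7:22727070-22727199 (plus strand) for IL6 and chr6:137867129-137867258 (plus strand) for TNFAIP3.
CXCL1: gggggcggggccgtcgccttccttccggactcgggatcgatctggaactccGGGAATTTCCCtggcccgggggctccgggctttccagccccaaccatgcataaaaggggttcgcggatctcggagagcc
CXCL5: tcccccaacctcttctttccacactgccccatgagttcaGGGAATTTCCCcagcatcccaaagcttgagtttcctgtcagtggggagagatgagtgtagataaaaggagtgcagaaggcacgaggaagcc
CXCL6: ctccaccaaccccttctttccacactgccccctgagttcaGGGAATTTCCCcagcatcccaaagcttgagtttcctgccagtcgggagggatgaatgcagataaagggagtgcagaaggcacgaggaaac
IL6: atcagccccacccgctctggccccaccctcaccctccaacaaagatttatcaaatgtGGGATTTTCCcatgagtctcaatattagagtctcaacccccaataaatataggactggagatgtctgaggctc
TNFAIP3: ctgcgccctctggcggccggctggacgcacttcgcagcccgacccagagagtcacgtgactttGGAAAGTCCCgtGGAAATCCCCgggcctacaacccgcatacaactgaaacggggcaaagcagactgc
The first 3 share the same 11 capital letters, between 69 and 91 bases before the start. In the 250 bases before the start, a match on either strand was found in 12 of the 21 list members with a promoter in the table (57.1%), in 8.76% of the 11052 tested genes with a promoter and in 5.67% of all 35116 promoters. A match describes the letters and does not show that a factor binds there. The list was chosen as genes under NF-kB, so the share with a match says nothing about replicate 1.

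CSF3, IL6 and CXCL5 had the lowest mean differences in the list. CSF3, the granulocyte growth factor G-CSF (hg38, chromosome 17, 40015361 to 40017813), stood at 4.45, 67.2 and 46.9 CPM in replicates 1, 2 and 3 of untreated WT, at 3.8, 69.9 and 45.6 CPM in treated WT, at 0.926, 4.8 and 4.14 CPM in untreated NS1 and at 0.26, 0.698 and 0.83 CPM in treated NS1. Replicate 1 was the lowest library of every group, with a mean difference of -2.69 ± 1.27 log2 (SD over 4 groups). IL6, an inflammatory cytokine, stood at 0.843, 16.7 and 13.4 CPM in untreated WT, at 1.04, 16.2 and 11.5 CPM in treated WT, at 1.05, 1.31 and 1.73 CPM in untreated NS1 and at 1.46, 3.75 and 2.41 CPM in treated NS1. That made IL6 13.4-fold lower in replicate 1 of WT cells and 1.65-fold lower in NS1 cells. CXCL5, a chemokine that draws neutrophils, stood at 7.82, 55.2 and 44 CPM in untreated WT, at 6.03, 50.7 and 43.8 CPM in treated WT, at 2.53, 6.03 and 6.16 CPM in untreated NS1 and at 1.14, 4.45 and 5.07 CPM in treated NS1. CXCL1, a related chemokine, stood at 35.8, 121 and 89.9 CPM in untreated WT, at 27.3, 114 and 84.3 CPM in treated WT, at 12.5, 24.3 and 21.5 CPM in untreated NS1 and at 4.83, 12.9 and 16.4 CPM in treated NS1. CXCL1, CXCL2 and CXCL3 are close copies, and the split of reads among them is uncertain. IL1A, an alarm cytokine of epithelial cells (chromosome 2, 112773915 to 112784590), varied least between groups among these, at 15.8, 47.4 and 42.1 CPM in untreated WT and 2.18, 6.37 and 6.56 CPM in treated NS1, with a mean of -1.45 ± 0.15 log2.

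Inhibitors and surface proteins of the pathway were also lower. TNFAIP3 encodes A20, a ubiquitin-editing brake on NF-kB, and stood at 8.57, 39.4 and 32.2 CPM in untreated WT, at 9.07, 32.2 and 31.7 CPM in treated WT, at 11.4, 26.4 and 27.9 CPM in untreated NS1 and at 11.8, 32.1 and 27.2 CPM in treated NS1. Replicate 1 of TNFAIP3 lay between 8.57 and 11.8 CPM in both lines, far below the other libraries. NFKBIA, the inhibitor that holds NF-kB in the cytoplasm (chromosome 14, 35401511 to 35404749), was lower by a mean of -0.62 ± 0.08 log2. NFKB1, a subunit of NF-kB itself, differed by -0.23 ± 0.03 log2. ICAM1, a leukocyte adhesion receptor, differed by -1.42 ± 0.89 log2 and LIF, a cytokine of the IL6 family, by -1.12 ± 0.21 log2. The 7 members that did not lie beyond both libraries in all groups were PTGS2, CSF2, CXCL2, CCL20, BIRC3, IL11 and TNFAIP2.

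**Figure D1:**
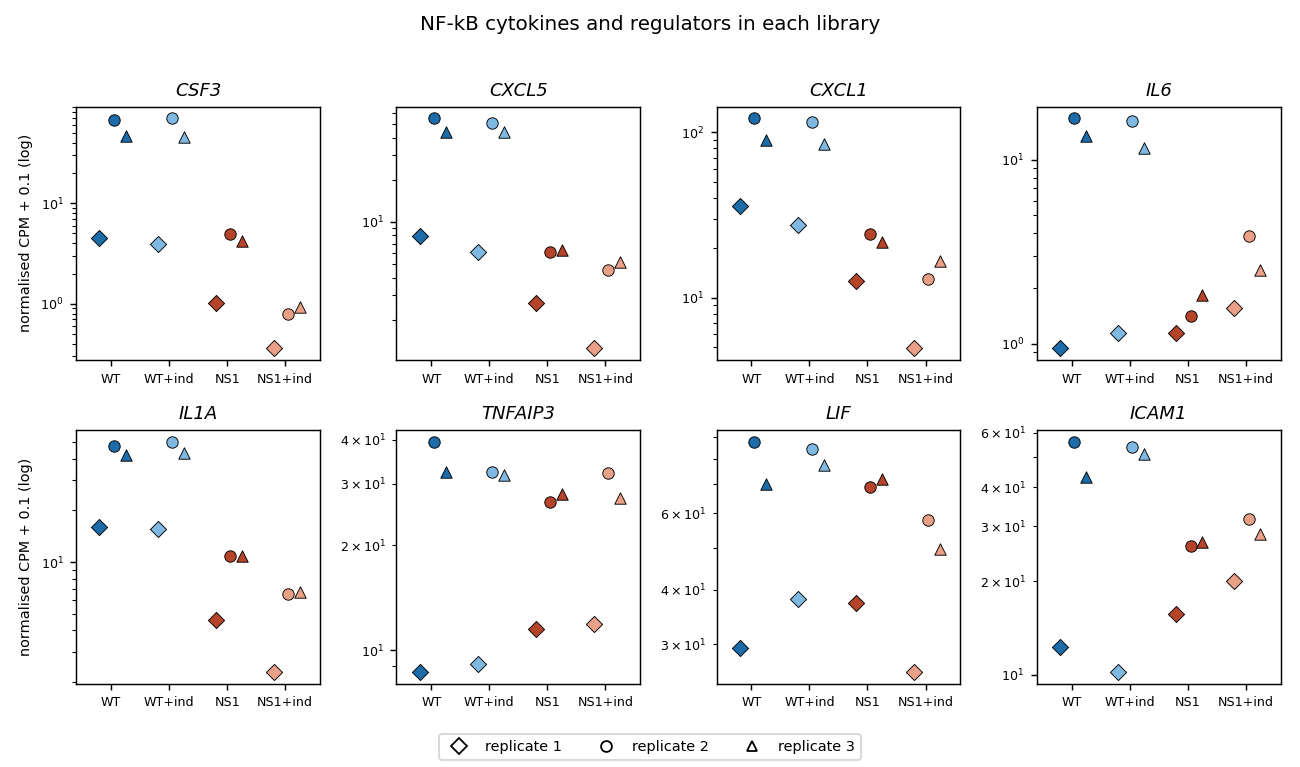
CPM plus a small constant that lets 0 be drawn (log axis, constant on the axis label) of 8 NF-kB list members in the 12 libraries, by group (ind, with inducer) and replicate number. Replicate 1 is the lowest library of its group in every panel, and the gap is wider in WT than in NS1 cells for IL6, from 13.4-fold to 1.65-fold.

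Genes under HIF were lower in replicate 1 in all 4 groups. Shares over all genes tested were 9.45% below both other libraries in all groups and 8.64% above. Of 25 members, all of which passed the filter, 16 were below both other libraries in all 4 groups and none was above, with a median of -0.40 log2 and group medians from -0.32 to -0.45. LOX, a collagen crosslinking enzyme, stood at 30.4, 91.4 and 83.1 CPM in untreated WT, at 24.3, 79.9 and 75.5 CPM in treated WT, at 32.3, 65.7 and 64.6 CPM in untreated NS1 and at 38.1, 85.2 and 65.9 CPM in treated NS1. ENO2, a glycolytic enolase, stood at 38.4, 82.9 and 89.3 CPM in untreated WT and at 29.7, 58.5 and 56.2 CPM in treated NS1, and its mean difference of -1.18 ± 0.17 log2 was even over the groups. NDRG1, a stress-responsive protein, stood at 18.2, 86.6 and 99 CPM in untreated WT and at 44.1, 81.5 and 71 CPM in treated NS1, and differed by -1.69 ± 0.78 log2. VEGFA, the main angiogenic growth factor (chromosome 6, 43770184 to 43786487), differed by -1.02 ± 0.57 log2. Not all HIF targets followed: CA9, EGLN3, KDM3A, EGLN1, HILPDA, ANKRD37, KDM4B, PDK1 and MXI1 did not lie beyond both other libraries in all groups. Glycolytic enzymes and lactate exporters were lower by less, with 7 of 17 below both libraries in all groups, 1 above and a median of -0.24 log2. HK2, which traps glucose in the cell, differed by -0.40 ± 0.07 log2.

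ATF4 and its targets in amino acid supply were also lower. Among all genes tested, 9.45% were below both other libraries in all groups and 8.64% above. Of 27 members tested of 28, 15 were below both other libraries in all groups and none was above, with a median of -0.49 log2. The transcript of ATF4 itself (chromosome 22, 39519695 to 39522685) stood at 139, 270 and 278 CPM in untreated WT, at 142, 299 and 249 CPM in treated WT, at 93.3, 219 and 216 CPM in untreated NS1 and at 54.7, 204 and 187 CPM in treated NS1. VLDLR, a lipoprotein receptor, stood at 5.86, 15 and 12.3 CPM in untreated WT, at 5.37, 15.8 and 13.2 CPM in treated WT, at 1.73, 11.7 and 11.8 CPM in untreated NS1 and at 2.91, 16.1 and 13.2 CPM in treated NS1. CHAC1, which breaks down glutathione, differed by -1.12 ± 0.29 log2 and TRIB3, a pseudokinase that restrains ATF4, by -0.68 ± 0.16 log2. In each of these genes the replicate 1 library was the lowest of its group. Other members did not follow, with DDIT4 at -0.13 log2, ATF5 at 0.05 log2 and PSPH at 0.08 log2.

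In the endoplasmic reticulum stress list 8 of 19 members were below and 1 above in all groups, with a median of -0.14 log2. Of all genes tested 9.45% were below and 8.64% above. HERPUD1, a factor of protein disposal from the endoplasmic reticulum, stood at 29.8, 54.9 and 56.7 CPM in untreated WT and at 30.9, 48.3 and 47.2 CPM in treated NS1, while HSPA5, the main chaperone there, differed by -0.34 ± 0.12 log2 and CANX, a lectin chaperone, by 0.26 log2. Heat shock genes had a median of 0.01 log2, with 4 of 20 below and 5 above. The member with the largest difference was CRYAB, a small heat shock protein, at 0.0469, 0.525 and 0.677 CPM in untreated WT, at 0, 0.964 and 0.27 CPM in treated WT, at 0.0617, 2.33 and 2.89 CPM in untreated NS1 and at 0.572, 9.6 and 15.2 CPM in treated NS1. Replicate 1 of CRYAB was at or near 0 in both WT groups and untreated NS1, so the size of its difference depends on the prior count. The lysosome list had a median below 0 in every group and of -0.39 log2 for the mean over groups. In all groups 16 of 21 members were below both libraries and none above. Not all followed: ATP6V0D1, LAMP2 and ATP6V1H were not beyond both in all groups, nor were GLA and TFEB, with means of 0.05 and 0.07 log2. GRN, the precursor of granulins that act in lysosomes, stood at 306, 444 and 469 CPM in untreated WT, at 256, 463 and 440 CPM in treated WT, at 284, 431 and 450 CPM in untreated NS1 and at 451, 703 and 717 CPM in treated NS1. CTSD, a lysosomal protease, differed by -0.40 ± 0.09 log2.

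Among genes that respond to serum, stress or cell contact, replicate 1 was lower for some members. The shares over all genes tested were 9.45% below and 8.64% above in all groups. In the immediate-early list 8 of 22 were below and 1 above in all groups, with a median of -0.30 log2. KLF2, a zinc finger transcription factor (chromosome 19, 16324817 to 16327874), stood at 3.8, 9.76 and 12.3 CPM in untreated WT, at 4.7, 10.6 and 9.91 CPM in treated WT, at 6.11, 13.6 and 14.6 CPM in untreated NS1 and at 4.31, 10.5 and 12.5 CPM in treated NS1, and MYC differed by 0.10 log2. Targets of YAP and TEAD, the pair of factors that dense cultures silence, had 6 of 24 below and 2 above, with a median of -0.28 log2. CCN1, a matricellular protein and common YAP readout, differed by -0.63 ± 0.05 log2 and CCN2, its relative, by -0.69 ± 0.19 log2. F3, the tissue factor that starts coagulation, stood at 15.3, 60.5 and 46.3 CPM in untreated WT, at 10.6, 49.7 and 40.7 CPM in treated WT, at 28.1, 62.2 and 58.8 CPM in untreated NS1 and at 12, 56.6 and 35.7 CPM in treated NS1.

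Proliferation, cytosolic ribosome and nuclear-encoded respiratory chain lists had medians near 0. They were 0.03 log2 for 33 genes of replication and mitosis, 0.00 for 77 cytosolic ribosomal proteins and 0.01 for 38 nuclear-encoded respiratory chain subunits, with 3, 0 and 0 members below and 2, 0 and 2 above in all groups. All genes tested had 9.45% below and 8.64% above, so the 3 proliferation genes below (9.09%) were near that share. The proliferation median was 0.08 and 0.10 in the WT and -0.07 and -0.15 log2 in the NS1 groups. The 13 mitochondrially encoded messenger RNAs, which make the other respiratory chain subunits, had a median of -0.43 log2. The mean over groups was negative for 13 of 13, but only 1 was below both libraries in all groups and none above. In treated NS1 cells their median was 0.32 log2. Ribosome biogenesis genes were higher in replicate 1, with 8 of 20 members above both libraries in all groups, none below and a median of 0.19 log2. DKC1, the pseudouridine synthase of small nucleolar particles, stood at 194, 158 and 151 CPM in untreated WT, at 201, 149 and 157 CPM in treated WT, at 182, 144 and 151 CPM in untreated NS1 and at 110, 96.7 and 102 CPM in treated NS1. The other 7 were NPM1, NOP58, GNL3, WDR12, POLR1B, POLR1A and BOP1. Of 8 markers of differentiated urothelium 4 were tested, and 3 of these were higher in all groups. The other tested marker had a mean difference of -0.21 log2. Group medians of the 4 were 0.85 and 0.84 in WT and 0.14 and 0.25 log2 in NS1 cells. The line contrast called 3 of them negative and none positive, against 7.81% and 5.98% of all genes tested. GATA3, a luminal transcription factor, stood at 50.1, 24 and 24.7 CPM in untreated WT, at 44.9, 22.5 and 22.2 CPM in treated WT, at 34.7, 28.6 and 29.3 CPM in untreated NS1 and at 105, 60.3 and 69.8 CPM in treated NS1. PPARG and FOXA1, factors of the same programme, differed by 0.57 ± 0.38 and 0.47 ± 0.39 log2.

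The single genes with the largest higher values were SMR3B and CDH6. SMR3B encodes a secreted proline-rich protein of salivary glands, and it was counted 795, 39 and 20 times in untreated WT, 575, 24 and 17 times in treated WT, 24, 0 and 0 times in untreated NS1 and 23, 0 and 0 times in treated NS1. It was thus counted in NS1 cells in replicate 1 only, where 0 counts in the other libraries allow up to 3. CDH6, a cadherin of cell adhesion, stood at 19.4, 3.83 and 3.38 CPM in untreated WT, at 18.6, 3.26 and 4.5 CPM in treated WT, at 7.9, 0.509 and 0.577 CPM in untreated NS1 and at 8.99, 1.57 and 1.33 CPM in treated NS1. FLRT3, a membrane protein of cell adhesion, was the steadiest of the higher genes, with 1.20 ± 0.12 log2. ANXA10, an annexin (chromosome 4, 168092515 to 168187690), and EEF1A2, an elongation factor of translation, were higher by 1.55 ± 0.80 and 1.36 ± 0.87 log2. The other genes chosen by size were ZNF488, ANK3, SEMA3D, ADGRL2, ID2 and MSX2, with means from 1.03 to 1.42 log2. On the lower side, beside CSF3, IL6, CXCL5 and VLDLR, the genes chosen by size were MMP3, MMP1, PI3, C3, SERPINB2, SERPINB10, KRT17 and SCG5. PI3, an inhibitor of elastase, stood at 0.656, 15.8 and 21.2 CPM in untreated WT, at 0.997, 21.5 and 18.9 CPM in treated WT, at 0.0617, 1.53 and 0.673 CPM in untreated NS1 and at 0.104, 0.349 and 1.25 CPM in treated NS1. C3, the central complement protein (chromosome 19, 6677704 to 6730562), stood at 14.2, 52.7 and 41.1 CPM in untreated WT, at 11.7, 48.7 and 45.3 CPM in treated WT, at 0.556, 8.5 and 7.41 CPM in untreated NS1 and at 0.884, 17.3 and 21 CPM in treated NS1. Replicate 1 was the lowest library of each group in both genes.

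Whether the replicate 1 difference was the same in both lines was tested in edgeR's quasi-likelihood fit, as the difference in NS1 cells minus that in WT cells. A positive value means that replicate 1 stood higher, relative to its own line, in NS1 than in WT cells. The contrast called 2451 genes at an adjusted p under 0.05 (13.8%), 1063 positive (5.98%) and 1388 negative (7.81%), against the spread between replicates 2 and 3. If a replicate number marks a culture run, each number is 1 run per line and the test compares these libraries only. A block for replicate 3 against 2 raised the count to 3408, while DESeq2 called 1424. The count rose to 4535 without untreated WT replicate 2 and to 5127 without untreated WT replicate 3. It fell to 1265 without untreated WT replicate 1, 1200 without treated WT replicate 1, 1426 without untreated NS1 replicate 1 and 1049 without treated NS1 replicate 1. It fell to 1429 and 1405 without treated WT replicates 2 and 3, and to 1418 and 1525 without untreated NS1 replicates 2 and 3. Of the 2451 genes, 958 (39.1%) had replicate 1 higher in both WT and lower in both NS1 groups, 672 (27.4%) the opposite, 265 (10.8%) lower in all groups and 76 (3.10%) higher in all groups. Of 25 HIF genes 6 were positive and 3 negative, of 27 ATF4 genes 5 and 5, of 21 lysosome genes 2 and 0, and of 17 glycolysis genes none was called.

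**Figure D2:**
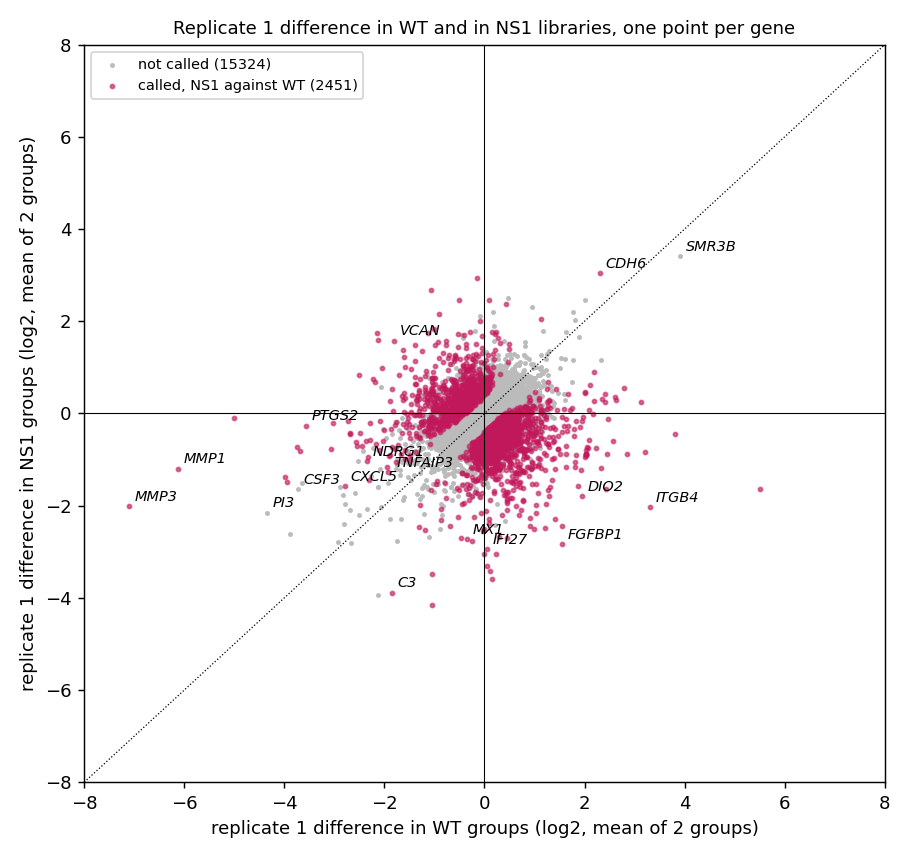
Replicate 1 difference (log2 CPM) in WT cells (horizontal axis) against NS1 cells (vertical axis), each the mean of 2 groups, 1 point per gene for 17775 genes. Genes called for a difference between the lines are coloured, and 39.1% of them lie higher in both WT and lower in both NS1 groups, among them ITGB4 (3.31 in WT and -2.03 in NS1).

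Across genes, which are not independent replicates, the differences in WT and NS1 cells had a Pearson r of 0.163 and a Spearman rho of 0.153 and shared their sign in 55.6% of genes. The same measure between the inducer groups within a line gave a Pearson r of 0.752 in WT and 0.713 in NS1 cells. ITGB4, the integrin beta chain of hemidesmosomes, had the most negative contrast of the named genes. It stood at 157, 16.1 and 14.5 CPM in untreated WT, at 158, 13.8 and 19.1 CPM in treated WT, at 5.56, 28.6 and 26.9 CPM in untreated NS1 and at 15.6, 52.6 and 54.5 CPM in treated NS1. Replicate 1 was 9.92-fold higher in WT and 4.08-fold lower in NS1 cells, and the line contrast was -5.36 ± 0.18 (SE) log2 with an edgeR adjusted p of 4.87e-08. FGFBP1, a carrier of fibroblast growth factors (chromosome 4, 15935569 to 15938740), had the same shape, at 40.9, 11.2 and 10.9 CPM in untreated WT, 27.7, 14.5 and 9.73 CPM in treated WT, 1.3, 6.54 and 5.67 CPM in untreated NS1 and 2.03, 24.8 and 25.7 CPM in treated NS1 (-4.47 ± 0.24 log2). DIO2, the enzyme that activates thyroid hormone, had a line contrast of -4.23 ± 0.40 log2, and PTGES, a prostaglandin E synthase, of -3.81 ± 0.36 log2. VCAN, the proteoglycan versican, ran the other way, at 3.33, 13.7 and 7.44 CPM in untreated WT, 2.47, 10.6 and 10.7 CPM in treated WT, 34.3, 11.1 and 12.4 CPM in untreated NS1 and 53.2, 19.2 and 15.4 CPM in treated NS1 (3.48 ± 0.28 log2).

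In the NF-kB list 12 of 24 members were called and all 12 were positive, so that replicate 1 of WT cells was the lower in these (median contrast 1.07 log2, 0.00 over all genes tested). Over all genes tested 13.8% were called, 5.98% positive and 7.81% negative. PTGS2, the inducible cyclooxygenase, stood at 5.43, 71.5 and 44.4 CPM in untreated WT, at 4.13, 62.2 and 55.1 CPM in treated WT, at 11.9, 24.2 and 21.4 CPM in untreated NS1 and at 27, 19.5 and 21.3 CPM in treated NS1, with a line contrast of 3.35 ± 0.26 log2 and an edgeR adjusted p of 1.76e-05. IL1B, an inflammatory cytokine (chromosome 2, 112829751 to 112836903), was 4.88-fold lower in WT and 1.49-fold lower in NS1 replicate 1 (1.71 ± 0.13 log2), and CXCL8, the neutrophil chemokine interleukin 8, had a contrast of 1.65 ± 0.13 log2. For CXCL1 (0.47 ± 0.24 log2, adjusted p 0.227) and IL1A (0.14 ± 0.19 log2, adjusted p 0.688) the contrast missed the threshold. CXCL5 had a contrast of 1.16 ± 0.26 log2 and lost its call in 2 of 21 alternative settings, without treated WT replicate 1 and without untreated NS1 replicate 1. A pair of secreted proteases that degrade matrix had still larger contrasts. MMP1, an interstitial collagenase, stood at 0.843, 53.7 and 52.3 CPM in untreated WT, at 0.475, 59.6 and 50.8 CPM in treated WT, at 1.73, 4.65 and 3.56 CPM in untreated NS1 and at 0.364, 0.698 and 1.49 CPM in treated NS1, with a contrast of 4.98 ± 0.59 log2. MMP3, or stromelysin 1, was counted 0, 285 and 189 times in untreated WT, 1, 346 and 254 times in treated WT, 12, 67 and 44 times in untreated NS1 and 6, 15 and 14 times in treated NS1. Its fitted contrast of 7.68 log2 depends on the prior count and is no bound.

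The matrix lists gave mixed values. Of all genes tested 9.45% were below and 8.64% above in all groups, and the line contrast called 5.98% positive and 7.81% negative. In the remodelling list 8 of 19 members tested (of 24) were below and 1 above in all groups (median -0.37 log2), and the line contrast called 4 positive and 6 negative. MMP14, a membrane collagenase, was lower in every group, at 195, 336 and 281 CPM in untreated WT and 150, 212 and 218 CPM in treated NS1. MMP13, another collagenase, was the member above in all groups, with 1.40 ± 0.56 log2. LOXL1, a crosslinking enzyme, stood at 20.1, 4.65 and 4.74 CPM in untreated WT, 22.1, 5.71 and 4.23 CPM in treated WT, 16.9, 28.6 and 24.8 CPM in untreated NS1 and 29.9, 40.9 and 44.8 CPM in treated NS1 (-2.70 ± 0.17 log2). Collagens had a median of -0.02 log2, with 1 of 18 tested (of 22) below in all groups and 8 negative line calls. The 7 fibroblast markers, COL1A1 among them, summed to 7.92, 2.63 and 3.96 CPM in untreated WT, 6.51, 2.89 and 2.79 CPM in treated WT, 2.53, 5.60 and 5.39 CPM in untreated NS1 and 8.53, 17.5 and 22.3 CPM in treated NS1, with 2 to 4 of them at 0. Their part in the matrix results was not tested. Matrix glycoproteins had a median of -0.01 log2 and line calls of 4 positive and 6 negative, among them TNC, the glycoprotein tenascin C (1.51 log2, adjusted p 0.00246), and SPARC, a collagen-binding glycoprotein (-1.41 ± 0.11 log2).

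Smaller lists gave mixed values. All genes tested had 9.45% below and 8.64% above in all groups, and line calls of 5.98% positive and 7.81% negative. Targets of FOXO, which are raised when growth factors are scarce, had 5 of 14 below and 1 above in all groups (median -0.17 log2), led by PIK3IP1, an inhibitor of PI3 kinase, at 2.67, 6.46 and 3.58 CPM in untreated WT and 5.67, 20.2 and 18.6 CPM in treated NS1. Glucocorticoid targets had 4 of 9 below and none above (median -0.40 log2), among them DUSP1, a MAP kinase phosphatase, with -0.79 ± 0.12 log2. In the metallothionein list, 3 of 7 were below and 1 above (median -0.28 log2). The member above was SLC30A1, a zinc exporter, at 62.8, 28 and 32 CPM in untreated WT, 56.4, 30.3 and 31.2 CPM in treated WT, 79.4, 53.1 and 50.7 CPM in untreated NS1 and 86.2, 53.4 and 59.3 CPM in treated NS1, while MT1X, MT2A and MT1G, which bind zinc, were below. NRF2 targets had 2 of 18 below (11.1%, near the share of all genes) and none above (median -0.01 log2), and line calls of 3 positive and 6 negative. Of the epithelial and mesenchymal list, 2 of 16 were below (12.5%, also near that share) and none above (median -0.10 log2). Its line calls were 2 positive, the transcription factors ZEB1 and SNAI2, and 6 negative, led by EPCAM, an epithelial adhesion protein, and KRT7, a keratin of simple epithelia. KRT7 stood at 2930.2, 1534 and 1930.0 CPM in untreated WT, 2767, 1763 and 1776 CPM in treated WT, 2003, 3927 and 4030.4 CPM in untreated NS1 and 2543, 5556 and 6019.9 CPM in treated NS1, so that replicate 1 was the highest library in WT and the lowest in NS1 cells (-1.79 ± 0.16 log2).

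**Figure D3:**
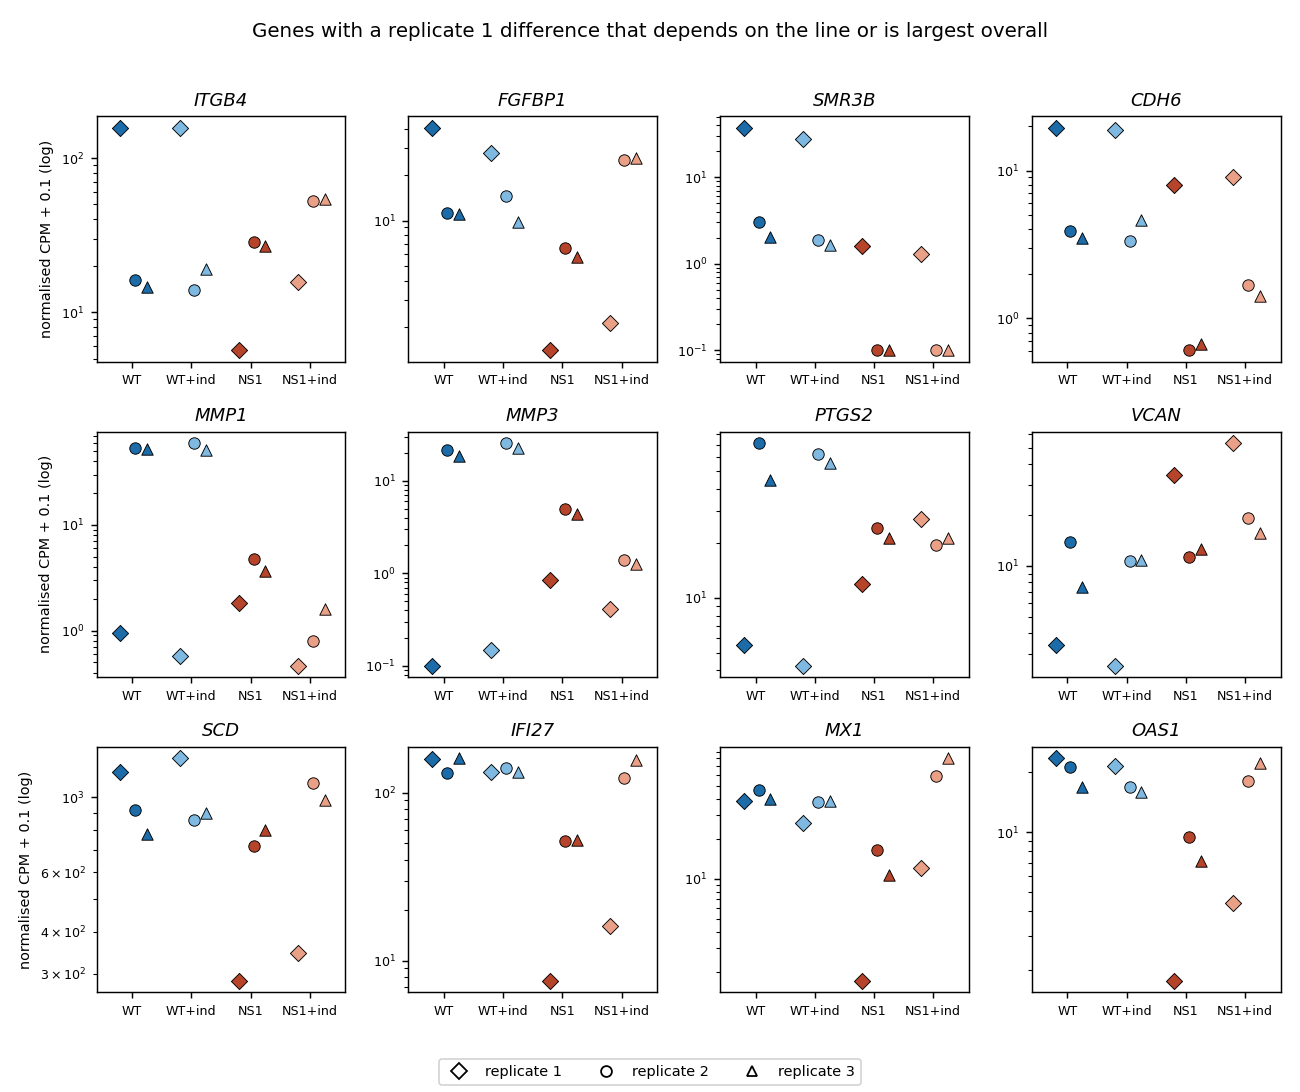
CPM plus a small constant that lets 0 be drawn (log axis, constant on the axis label) of 12 genes in the 12 libraries, by group (ind, with inducer) and replicate number. For ITGB4 and FGFBP1 replicate 1 is the highest library of both WT groups and the lowest of both NS1 groups, and for VCAN the reverse, while SMR3B and CDH6 are highest in replicate 1 of all 4 groups.

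Interferon-stimulated genes differed by line. The line contrast called 5.98% of all genes tested positive and 7.81% negative, and 9.45% were below and 8.64% above in all groups. Of 27 members tested of 28, 13 were called for the line contrast and all 13 were negative, 7 were below and 1 above in all groups, with group medians of 0.27 and 0.15 in WT and -0.62 and -0.70 log2 in NS1 cells. The 130 bases before the start of 3 members are shown for the letters they share, with capitals marking GAAA, any 2 bases and GAAA, or the reverse strand's TTTC, any 2 bases and TTTC. They lie on the plus strand of GRCh38.p14 in RefSeq at chr14:94110606-94110735 (IFI27), chr1:1013367-1013496 (ISG15) and chr10:89392493-89392622 (IFIT1).
IFI27: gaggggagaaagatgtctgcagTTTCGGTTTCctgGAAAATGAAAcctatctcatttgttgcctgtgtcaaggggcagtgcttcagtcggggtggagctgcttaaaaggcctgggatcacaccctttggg
ISG15: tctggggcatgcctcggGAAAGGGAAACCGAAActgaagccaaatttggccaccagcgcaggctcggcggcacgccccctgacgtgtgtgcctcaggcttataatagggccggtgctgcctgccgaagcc
IFIT1: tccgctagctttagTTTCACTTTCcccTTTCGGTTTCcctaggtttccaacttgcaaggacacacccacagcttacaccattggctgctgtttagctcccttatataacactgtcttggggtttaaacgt
The motif was found within 250 bases before the start in 13 of the 20 members with a promoter in the table (65%), in 3.28% of the tested genes and in 3.02% of all promoters. The list was chosen as interferon-stimulated genes, so this share says nothing about replicate 1 or the line contrast. IFI27, an interferon-induced mitochondrial membrane protein, stood at 159, 131 and 160 CPM in untreated WT, at 133, 140 and 133 CPM in treated WT, at 7.47, 51.5 and 52.1 CPM in untreated NS1 and at 16, 123 and 157 CPM in treated NS1. Replicate 1 lay between the other WT libraries in both WT groups and far below the other NS1 libraries (-3.01 ± 0.18 log2, edgeR adjusted p 3.13e-06). MX1, an antiviral GTPase, stood at 38.6, 46.5 and 39.6 CPM in untreated WT, at 26, 37.4 and 38.1 CPM in treated WT, at 1.6, 16.4 and 10.6 CPM in untreated NS1 and at 11.9, 58.7 and 80.1 CPM in treated NS1 (-2.46 ± 0.27 log2). OAS1, which activates RNase L, had a contrast of -2.62 ± 0.23 log2. OASL, a relative of the OAS enzymes, was higher in WT replicate 1, at 133, 55.4 and 66.1 CPM in untreated WT and 44.8, 43.6 and 56.1 CPM in treated NS1. ISG15, a ubiquitin-like protein, missed the threshold with an adjusted p of 0.252.

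Lipid synthesis was also lower in NS1 replicate 1. Shares over all genes tested were 5.98% positive and 7.81% negative line calls, and 9.45% below both libraries in all groups. For cholesterol synthesis, 12 of 25 members were called and all 12 were negative, with medians of -0.03 and -0.22 in WT and -0.53 and -0.52 log2 in NS1 groups, and 10 were below both libraries in all groups. MVD, an enzyme of the mevalonate pathway, stood at 117, 128 and 160 CPM in untreated WT, at 108, 138 and 150 CPM in treated WT, at 42.9, 113 and 129 CPM in untreated NS1 and at 42.6, 120 and 137 CPM in treated NS1 (-1.19 ± 0.16 log2). In the fatty acid list 6 of 15 members were called and all 6 were negative. SCD, the desaturase that makes oleate, stood at 1185, 919 and 780 CPM in untreated WT, at 1304, 856 and 897 CPM in treated WT, at 286, 715 and 798 CPM in untreated NS1 and at 345, 1102 and 980 CPM in treated NS1.

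ERK output and cell cycle lists split by line as well. Among all genes tested, 5.98% were called positive and 7.81% negative. In the ERK list 7 of 13 members were called and all 7 were positive, among them SPRY2, a feedback inhibitor (0.91 log2, adjusted p 0.00522), and DUSP5, a nuclear ERK phosphatase, at 10.6, 25.6 and 21.5 CPM in untreated WT, 10.1, 25.7 and 22.9 CPM in treated WT, 16.8, 19.2 and 21 CPM in untreated NS1 and 10.3, 14 and 15.6 CPM in treated NS1. In the clock list 5 of 16 were called, all positive, with NPAS2, a partner of BMAL1, at 16.3, 43.2 and 39.4 CPM in untreated WT and 18.8, 14.2 and 12.2 CPM in untreated NS1 (1.71 ± 0.16 log2). In the proliferation list 13 members were negative and 4 positive. The negative calls held the replicative helicase genes MCM2 to MCM7, such as MCM5 at 220, 161 and 183 CPM in untreated WT, 225, 178 and 189 CPM in treated WT, 99.3, 143 and 140 CPM in untreated NS1 and 52.4, 93 and 96.7 CPM in treated NS1. The positive calls were the mitotic genes CENPE, BUB1, AURKA and CENPF, while the line contrast of MKI67, a marker of cycling cells, had an adjusted p of 0.319. HMOX1, a heme-degrading enzyme in the NRF2 list, had a line contrast of 1.30 log2 (adjusted p 0.000221).

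Some properties of the libraries moved with replicate 1 and the line. Median replicate 1 differences in the bins of lowest and highest GC content, of 5 bins of genes, were 0.16 and -0.12 log2 in untreated NS1 and 0.15 and -0.11 in treated NS1, against 0.01 and 0.00 in untreated WT. Replication-dependent histone transcripts, which lack a poly(A) tail, summed to 48.1, 98.6 and 106 CPM in untreated NS1 and 106, 168 and 193 CPM in treated NS1, against 78.2, 56.5 and 68.2 CPM in untreated WT. Nuclear-retained noncoding RNAs had a median of -0.82 log2 in treated NS1 and between -0.07 and -0.33 in the other groups. Mitochondrially encoded messenger RNAs had medians of -1.09 and -0.70 in WT and -0.29 and 0.32 log2 in NS1 groups. The part of these properties in the results by line was not tested. With all libraries thinned to the lowest total, 1417 genes were higher and 1559 lower in all groups and the line contrast called 2008, so both counts stayed within 1.5 times those at full depth.

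Replicates 2 and 3, set against each other over the 4 groups, gave 0 calls (0%) in edgeR, with 1272 genes at an unadjusted p under 0.05 where chance gives 889 of 17775. This fit held group and replicate number only, so replicate 1 differences that varied by line added to its error. Between inducer groups, the differences between replicates 2 and 3 correlated at only 0.00908 in WT and 0.0608 in NS1 cells. An effect of the number shared by the groups could therefore hardly be found, and the 0 calls do not show that these replicates agree. Fitted on the libraries of replicates 2 and 3 alone, edgeR also called 0, with 2278 genes at an unadjusted p under 0.05. DESeq2 called 0, with 805, and edgeR without a low-count filter called 29. List medians for replicate 3 minus replicate 2 were -0.11 log2 for NF-kB cytokines, 0.20 for cytosolic ribosomal proteins and 0.30 for mitochondrially encoded messenger RNAs. The summed chi-square per degree of freedom between replicates 2 and 3 was 18.2 in untreated WT against 3.03 to 5.46 in the other groups, and 17.6 to 30.6 for pairs with a replicate 1 library.

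The replicate 1 difference with against without inducer called 0 genes (0%) in edgeR, with 348 at an unadjusted p under 0.05, and DESeq2 called 0 with 57. Within NS1 cells it called 0 (0%) with 456 at an unadjusted p under 0.05, and DESeq2 called 0 with 96. These unadjusted counts lay below the 889 that chance gives, so the tests were conservative here and the 0 calls say little. A p that misses the threshold does not show that the inducer acted alike in every replicate. In NS1 cells the list medians for treated minus untreated cells had the same sign in all 3 numbers for proliferation, ribosome biogenesis, ERK output, NRF2, FOXO and interferon lists. In replicates 1, 2 and 3 they were -0.79, -0.60 and -0.70 log2 for proliferation, with 33 of 33 members negative in each, and -0.48, -0.41 and -0.40 for ribosome biogenesis, with 20 of 20 negative in each. They were -0.64, -0.45 and -0.48 for ERK output, 0.54, 0.40 and 0.57 for NRF2 targets, 0.68, 0.69 and 0.70 for FOXO targets and 0.64, 0.75 and 1.13 for interferon genes. Further lists also kept their sign, among them lysosome (0.26, 0.40 and 0.28) and heat shock genes (-0.19, -0.20 and -0.22). Some lists changed sign between numbers. Among them were mitochondrially encoded messenger RNAs (0.62, 0.34 and -0.33), nuclear-retained noncoding RNAs (-0.21, 0.32 and 0.25), glycolysis (0.05, -0.11 and -0.16) and ATF4 targets (-0.15, -0.02 and 0.02). DIO2 differed by 3.65, 2.98 and 3.68 log2 and the ERK phosphatase gene DUSP6 by -0.64, -0.89 and -0.93 log2. KRT17, a basal keratin, differed by 1.10, 2.51 and 2.37 log2, and stood at 0.679, 8.43 and 9.71 CPM in untreated and 1.61, 48.5 and 50.7 CPM in treated NS1. The contrast for KRT17 was -1.22 ± 0.49 (SE) log2 with an edgeR adjusted p of 1. Without untreated WT replicate 2 or 3 the contrast within NS1 cells called 17 genes in either case, and the contrast over both lines called 5 and 4.

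**Figure D4:**
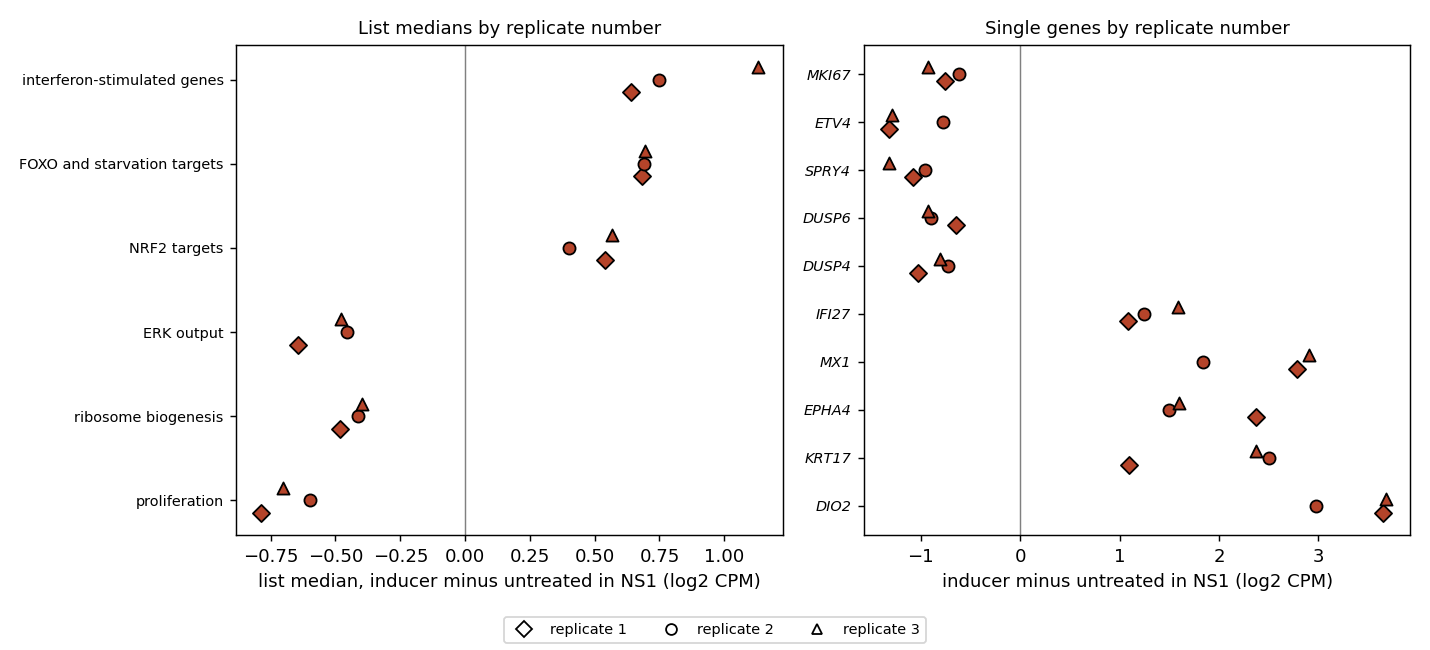
Difference between treated and untreated NS1 cells (log2 CPM) within replicates 1, 2 and 3, for the medians of 6 gene lists and for 10 genes. Proliferation lies at -0.79, -0.60 and -0.70 and interferon genes at 0.64, 0.75 and 1.13, while KRT17 is 1.10 in replicate 1 against 2.51 and 2.37.

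The difference between the lines, seen by replicate number, shows the same contrast from the other side. NS1 minus WT was -0.36, -1.68 and -1.40 log2 for the median of the NF-kB list in replicates 1, 2 and 3. It was -0.96, -0.44 and -0.36 for interferon genes and 0.34, -0.23 and -0.25 for ERK output, where the sign of the median in replicate 1 was opposite to that in replicates 2 and 3.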

How the data were processed

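The authors deposited raw gene counts for the 12 libraries in 1 table, and the submitters' processing notes name hg38, STAR 2.7.3a and featureCounts 1.6.4, with no role or order given. The annotation and the strand setting are not given in the sources used here, so overlapping, antisense and near-identical genes are uncertain. Totals ran from 10593934 to 20266996 counts. Of 60603 gene IDs, 60261 had a symbol and 26519 had no count in any library. filterByExpr kept 17775 genes. Positions come from GENCODE on hg38, where 58528 IDs matched, 43904 of them in the same version, and are given only for the latter.

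Log2 CPM used TMM factors and a prior count of 2 (R 4.3.3, edgeR 4.0.16, limma 3.58.1). Contrasts used edgeR's quasi-likelihood test with Benjamini-Hochberg adjustment over all genes tested, at 0.05. The line and inducer contrasts came from a fit with a mean and a replicate 1 effect per group, and replicate 3 against 2 from a fit of group and replicate number. DESeq2 1.42.0, other scaling, other filters, thinning and leaving out libraries or groups were alternatives. The code was tested on simulated data.

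The members and gene lists were chosen with earlier results of these data known. Named genes were up to 12 per direction with the largest replicate 1 difference, among genes with a symbol, a mean of at least 5 CPM and replicate 1 beyond both other libraries in all 4 groups. For each tested contrast they were up to 5 called genes per direction with the largest log2 fold change and the same minimum, and from each list up to 4 members with the largest difference, or any member where a list is described one by one. PEG10 and MKI67 were named with earlier results known. Values after ± are SDs over groups for replicate 1 differences and SEs for contrasts.

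The replicate numbers come from the sample titles. Deviations of same-numbered treated and untreated libraries from their group means correlated at 0.752, 0.385 and 0.256 in WT and at 0.713, 0.386 and 0.384 in NS1 cells, so by the rule that every pair exceed 0.1 the numbers pair the inducer groups within a line. Replicate 1 carries this, since with 3 libraries its distance forces replicates 2 and 3 to deviate together. Replicates 2 and 3 with different numbers correlated nearly as highly (0.367 and 0.248 in WT, 0.371 and 0.278 in NS1), and the differences between replicates 2 and 3 correlated at only 0.00908 in WT and 0.0608 in NS1 cells, so a pairing of replicates 2 and 3 is not shown. Promoter sequences come from RefSeq on GRCh38.p14. A few named genes are not reported here.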

Additional observations from a re-analysis of the deposited data

Results flagged for a closer look

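The replicate 1 difference was not the same in NS1 and WT cells for 2451 genes in edgeR's quasi-likelihood test of that difference, which is why the genes with the largest contrasts are listed here. The contrast was positive, with replicate 1 relatively higher in NS1 than in WT cells, for MMP3 (7.68 log2, a fitted value that depends on the prior count), MMP1 (4.98), SCG5 (3.90), VCAN (3.48) and PTGS2 (3.35). It was negative for ITGB4 (-5.36), FGFBP1 (-4.47), DIO2 (-4.23) and PTGES (-3.81).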

How the results depend on the processing

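With library totals in place of TMM, 2482 genes were higher and 1092 lower in replicate 1 in all groups, 56 were at least 2-fold higher, and the hypoxia and glucocorticoid lists had medians of -0.33 and -0.33 log2. With no low-count filter, 67 were at least 2-fold higher, the matrix remodelling and glucocorticoid medians were -0.24 and -0.35, replicate 3 against 2 called 29, and the inducer contrasts called 4 overall and 8 in NS1 cells. With at least 10 counts in every library, 13 were at least 2-fold higher and 80 lower (fewer genes were tested) and the glucocorticoid median was -0.48. After thinning it was -0.46. DESeq2 called 1424 genes for the line contrast, 589 positive and 835 negative. With the replicate block, a term for replicate 3 against 2 whose pairing the differences between those libraries do not show, edgeR called 3408, 1552 positive and 1856 negative. Fitting 1 replicate 1 effect per line with that block, chosen after seeing the data, called 4258, 2022 positive and 2236 negative. With the block both inducer contrasts still called 0. Leaving out 1 library at a time, the line contrast called 1049 to 5127, with 440 to 2501 positive and 599 to 2626 negative, the inducer contrast 0 to 5 and that in NS1 cells 0 to 17. The last could not be fitted without either NS1 replicate 1 library. Without a replicate 1 library, the line contrast used only the other group of that line. The inducer contrast then used only the other line. Leaving out replicate 2, replicate 3 or a group, 1945 to 3004 genes were higher, 2022 to 2890 lower and 47 to 66 at least 2-fold higher, since fewer libraries had to be passed. Medians then ran from -0.44 to -0.10 for FOXO targets, -0.34 to -0.14 for YAP-TEAD targets, -0.10 to 0.10 for ribosomal proteins, -0.55 to -0.29 for glucocorticoid targets, -0.51 to -0.27 for matrix remodelling and -0.45 to -0.22 for metallothioneins. The cause was not tested where none is named. Of 21 named genes called for the line contrast, 18 were called in every alternative run. CDH6 lost its call in 12 of 20, CXCL5 in 2 and VLDLR in 1 of 21. No named gene's contrast changed sign while called. List medians near 0 took either sign under some alternatives, from -0.07 to 0.12 for collagens, -0.16 to 0.11 for matrix glycoproteins, -0.11 to 0.04 for the clock, -0.07 to 0.04 for proliferation and -0.05 to 0.05 for NRF2 targets when libraries were left out, and likewise for heat shock and nuclear-encoded respiratory chain genes. With only replicates 2 and 3, replicate 3 against 2 had 2278 genes at an unadjusted p under 0.05. Counts below 3 in a library set no lower limit for a fold.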
